A study of Saccharomyces cerevisiae x Saccharomyces kudriavzevii with 6 samples.

Results

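The genes of trehalose synthesis and breakdown are 9 of the 5616 ORFs in the table, chosen by ORF name. They are *TPS1* (YBR126C), *TPS2* (YDR074W), *TPS3* (YMR261C) and *TSL1* (YML100W) of the trehalose synthase complex, the trehalases *NTH1* (YDR001C), *NTH2* (YBR001C) and *ATH1* (YPR026W), and *PGM2* (YMR105C) and *UGP1* (YKL035W), which supply UDP-glucose. All 9 ORFs had a row. The hybrids *S. cerevisiae* x *S. kudriavzevii* W27 and VIN7, both allotriploid wine yeasts, fermented Tempranillo must at 12°C or 28°C and were sampled as exponential growth began. Each strain had 3 dual-colour arrays, named A, B and C, and each array gave 1 log2 ratio per ORF, titled as the 12°C sample over the 28°C sample. Read as titled, a positive value means more transcript at 12°C, and a log2 ratio of 1 is a 2-fold change. The 12°C sample carried Cy5 on every array but VIN7 C, where the dyes were exchanged. Whether the ratios of VIN7 C were turned before deposit is not given in the sources used here, so the sign of each of its values is uncertain, and it was kept as titled. The labels speak of biological replicates and the Methods of 2 fermentations per strain, so the p-values measure the spread between these arrays, which may be partly technical.

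Trehalose is a disaccharide of 2 glucose units that yeast stores as a reserve and that protects membranes and proteins under heat, drying, freezing and ethanol stress. Tps1 joins glucose 6-phosphate and UDP-glucose to trehalose 6-phosphate, Tps2 removes the phosphate, and Tps3 and Tsl1 are the larger, regulatory subunits of the complex. Nth1 and Nth2 split trehalose in the cytosol at neutral pH, and Ath1 does so at acid pH. Pgm2, the major phosphoglucomutase, makes glucose 1-phosphate, from which Ugp1 makes UDP-glucose. Trehalose 6-phosphate also restrains hexokinase, and thereby the entry of glucose into glycolysis.

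By their systematic names, *TPS1* and *NTH2* lie on chromosome II, *TPS2* and *NTH1* on IV, *UGP1* on XI, *TPS3*, *TSL1* and *PGM2* on XIII, and *ATH1* on XVI. The array holds PCR-amplified S288c ORFs, so the transcripts of both parental alleles of a gene bind to 1 spot. Both hybrids have lost parts of the *S. kudriavzevii* chromosome IV, and whether these parts hold *TPS2* or *NTH1* was not examined here. *NTH1* and *NTH2* are similar in sequence, as are *TPS3* and *TSL1*, and *PGM2* and its paralogue, so labelled cDNA of one can bind the spot of the other.

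The trehalose genes were measured less often than most ORFs, with 34 of 54 possible values (63.0%), against 83.2% over the whole table. They had values for 6, 5 and 4 genes on W27 A, B and C, and for 6, 4 and 9 genes on VIN7 A, B and C. *TPS3*, *TSL1* and *ATH1* had no value on any W27 array, as was the case for 136 ORFs (2.42%). *TPS3* and *ATH1* were read on VIN7 C alone. The arrays differed in spread, with an SD over genes of 1.00 to 1.49 on the W27 arrays and of 0.39 (VIN7 C) to 1.71 (VIN7 B) on the VIN7 arrays. W27 A ran against W27 B and W27 C over genes (r = -0.14 and -0.19), whereas W27 B and C ran together (r = 0.79). With VIN7 A, B and C, W27 A gave r = -0.24, -0.10 and -0.27. W27 B gave 0.66, 0.30 and 0.07 with them, and W27 C 0.61, 0.35 and 0.09, with VIN7 C as titled in each case. VIN7 A and B gave r = 0.36. As titled, VIN7 C gave r = 0.37 with VIN7 A and 0.055 with VIN7 B, values that turning it would make negative.

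In the synthase complex, *TSL1* had the highest VIN7 mean of all the trehalose genes and *TPS1* one near 0 in both strains, but no change passed the test. *TSL1* was at 2.31 on VIN7 A and 0.63 on VIN7 C, and had no value on VIN7 B. It was thus higher at 12°C on both arrays that read it, by 4.97-fold and 1.55-fold. On VIN7 A, 99.4% of genes were below it, and on VIN7 C 96.0%. The mean was 1.47 ± 1.19 (SD, n = 2), with a 95% interval of -0.18 to 3.13 (adjusted p = 0.612 by limma). When the dye-swapped VIN7 C was turned, its value and that of VIN7 A had opposite signs and the mean was 0.84.

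*TPS1*, the synthase itself, was at -0.37, 0.37 and -0.42 on W27 A, B and C, and at 0.15, -1.05 and 0.68 on VIN7 A, B and C. In both strains the arrays lay on either side of 0. The means were -0.14 ± 0.44 in W27 and -0.07 ± 0.89 in VIN7 (SD, n = 3 each), with adjusted p = 0.947 and 0.942 by limma. The lowest of these values came from VIN7 B, the array with the widest spread, and without it the VIN7 mean was 0.42. *TPS1* was nevertheless among the highest genes of VIN7 C, with 97.0% of genes below it. When VIN7 C was turned, that value was among the lowest and the VIN7 mean was -0.53.

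*TPS2*, the phosphatase, gave 0.62 and 0.26 on arrays A and B of W27, with no value on W27 C, and 0.50, 1.29 and -0.08 on VIN7 A, B and C. It was higher at 12°C on 4 of the 5 arrays that read it. The means were 0.44 ± 0.26 in W27 (SD, n = 2) and 0.57 ± 0.68 in VIN7 (SD, n = 3). The VIN7 mean was 0.21 without VIN7 B and 0.89 without VIN7 C. Neither passed the test (adjusted p = 0.846 and 0.612 by limma), and the 95% intervals were -1.004 to 1.88 in W27 and -0.39 to 1.53 in VIN7. *TPS3*, the other regulatory subunit, was at -0.08 on VIN7 C, close to the middle of that array (42.2% of genes below it).

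**Figure D1:**
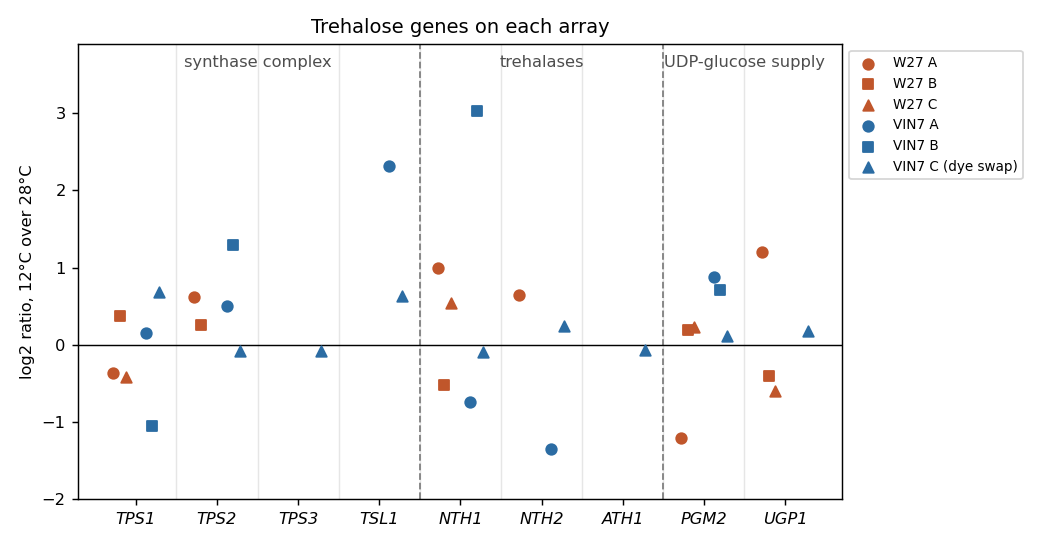
Log2 ratio (12°C over 28°C) of each trehalose gene on every array that measured it, W27 left and VIN7 right within each gene, with circles, squares and triangles for arrays A, B and C. Values run from -1.35 (*NTH2*, VIN7 A) to 3.03 (*NTH1*, VIN7 B), and most genes have arrays on both sides of 0.

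Among the trehalases, with VIN7 C as titled, no gene had the same sign on all the arrays of a strain where at least 2 read it. *NTH1*, the main neutral trehalase, was at 0.999 (just under 2-fold), -0.52 and 0.54 on W27 A, B and C. On VIN7 A, B and C it was at -0.74, 3.03 and -0.09. The VIN7 B value, an 8.16-fold higher level at 12°C, was the largest single value of any trehalose gene and had 96.4% of genes below it, while the other VIN7 arrays were below 0. The means were 0.34 ± 0.78 in W27 and 0.73 ± 2.02 in VIN7 (SD, n = 3 each), with adjusted p = 0.864 and 0.707 by limma. Without VIN7 B, the VIN7 mean was -0.42, so its sign rested on that array.

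*NTH2*, the second neutral trehalase, was at 0.64 on W27 A, the only W27 array that read it, and at -1.35 on VIN7 A and 0.25 on VIN7 C. The VIN7 A value, a ratio of 0.393, was among the lowest of that array, with 4.37% of genes below it. The VIN7 mean was -0.55 ± 1.13 (SD, n = 2, adjusted p = 0.684 by limma). When VIN7 C was turned, both VIN7 values were below 0 and averaged -0.80. *NTH1* and *NTH2* had the same sign on W27 A (0.999 and 0.64) and on VIN7 A (-0.74 and -1.35), and opposite signs on VIN7 C (-0.09 and 0.25). *ATH1*, the acid trehalase, was at -0.07 on VIN7 C, where 42.6% of genes were below it.

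For the supply of UDP-glucose, *PGM2* was higher at 12°C on all 3 VIN7 arrays, but by less than 2-fold. It was at -1.204, 0.19 and 0.23 on W27 A, B and C, and at 0.88, 0.70 and 0.11 on VIN7 A, B and C. W27 A stood apart from the other 5 arrays, all above 0. The VIN7 mean was 0.56 ± 0.40 (SD, n = 3), a 1.48-fold higher level at 12°C, with a 95% interval of -0.22 to 1.34 (adjusted p = 0.612 by limma). The W27 mean was -0.26 ± 0.82 (SD, n = 3), with adjusted p = 0.903 by limma, and leaving out W27 A brought it to 0.21. When VIN7 C was turned, *PGM2* averaged 0.49 in VIN7, with 2 of 3 arrays above 0.

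*UGP1*, the UDP-glucose pyrophosphorylase, was at 1.20, -0.40 and -0.60 on W27 A, B and C, and at 0.18 on VIN7 C. W27 A was again opposed to W27 B and W27 C. The W27 mean was 0.06 ± 0.99 (SD, n = 3), with adjusted p = 0.985 by limma. When W27 A was left out it was -0.50 (adjusted p = 0.148 by limma), which was the lowest adjusted p of any trehalose gene in any alternative. That value rests on W27 B and C, where 19.5% of 3938 genes were called higher and 19.6% lower. Adjusted p depends on all genes tested, so it is not on 1 scale across alternatives.

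**Figure D2:**
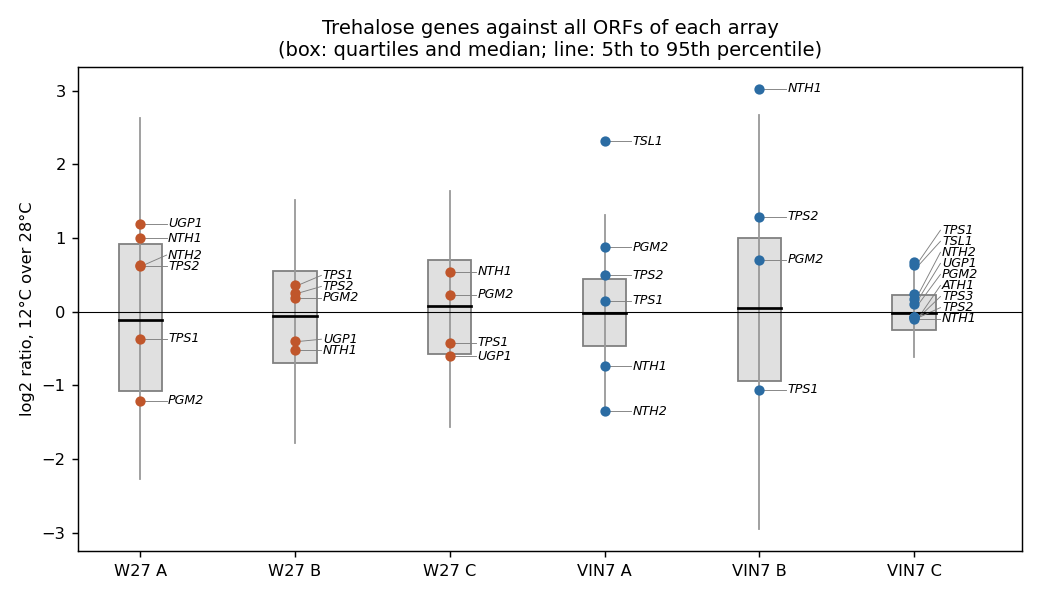
Log2 ratio (12°C over 28°C) of the trehalose genes (points) against all ORFs of the same array, where boxes give quartiles and median and lines the 5th to 95th percentile. On the W27 arrays every trehalose gene lies between those percentiles, whereas *TSL1* on VIN7 A, *NTH1* on VIN7 B, and *TPS1* and *TSL1* on VIN7 C lie above the 95th, and *NTH2* on VIN7 A lies below the 5th.

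Set against the spread of each array, the trehalose genes lay on both sides of 0. Of their 34 values, 21 were above 0 and 13 below. These include 9 values from VIN7 C, whose sign is uncertain, and the share of all values above 0 was not taken. The median of the trehalose genes was 0.63, 0.19 and -0.09 on W27 A, B and C and 0.32, 1.00 and 0.11 on VIN7 A, B and C. Over all genes, the medians were -0.11, -0.05 and 0.08 on the W27 arrays and -0.01, 0.06 and -0.01 on the VIN7 arrays. Of the 7 values at or past 2-fold in either direction, 3 came from VIN7 B, where 48.9% of all genes were past that size, and 2 from W27 A, where 49.9% were. The other 2, *TSL1* and *NTH2*, came from VIN7 A, where 17.6% were past it. No trehalose gene reached 2-fold on W27 B, W27 C or VIN7 C, where 29.1%, 29.7% and 1.40% of all genes did.

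By limma, none of the 5 trehalose genes with at least 2 W27 values passed a false discovery rate of 5%, and none of the 6 with at least 2 VIN7 values did. The share of all genes that passed was 0% of 4894 in W27 and 0% of 5100 in VIN7. At an unadjusted p under 0.05 there were 356 and 279 genes in W27 and VIN7 (7.27% and 5.47%), and 0 of them were trehalose genes. The median log2 ratio of the trehalose genes tested was 0.06 in W27, against -0.03 over all genes tested, and 0.57 in VIN7, against -0.02. These are medians of gene means, and the VIN7 one includes *NTH1*, whose mean of 0.73 was -0.42 without VIN7 B. The standard errors in VIN7 had a median of 0.49 for the trehalose genes, against 0.37 over all genes tested. The median size of the change, without its sign, was 0.26 against 0.50 in W27 and 0.57 against 0.42 in VIN7. The 95% intervals in W27 began between -1.48 and -0.86 and ended between 0.92 and 1.88.

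The Methods select genes at 2-fold log2 ratio values, taken here as a log2 ratio of 1. A log2 ratio of 2 could also be meant. A median of at least 2-fold over the arrays was reached by 0 of 5 trehalose genes in W27 in either direction. Of all genes, 10.3% reached it higher and 10.8% lower at 12°C. In VIN7 it was reached by 1 of 6 genes higher (*TSL1*) and 0 lower, against 5.71% and 4.1% of all genes. The same sign on all arrays that read the gene was found for *TPS2* in W27 (1 of 5 genes, against 37.9% of all genes) and for *TSL1* and *PGM2* in VIN7 (2 of 6, against 47.1%), each higher at 12°C. With VIN7 C turned, it was found in VIN7 for *TPS2* (higher) and *NTH2* (lower) instead, again 2 of 6 genes, against 27.9% of all genes. *TPS2* in W27, and *TSL1* and *NTH2* in VIN7, were read on 2 arrays only. A single sign is easier to reach on 2 arrays than on 3, and the shares pool genes read on either number.

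The number of W27 calls over all genes depended on W27 A. Without it, limma called 19.5% of 3938 genes higher and 19.6% lower at 12°C, but 0 of the 4 trehalose genes tested. With arrays weighted by their estimated precision, 16.8% of 4894 genes were called higher and 18.8% lower, and again 0 of the 5 trehalose genes. On W27 B and C together, the means were -0.02 for *TPS1*, 0.01 for *NTH1*, 0.21 for *PGM2* and -0.50 for *UGP1*.

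**Figure D3:**
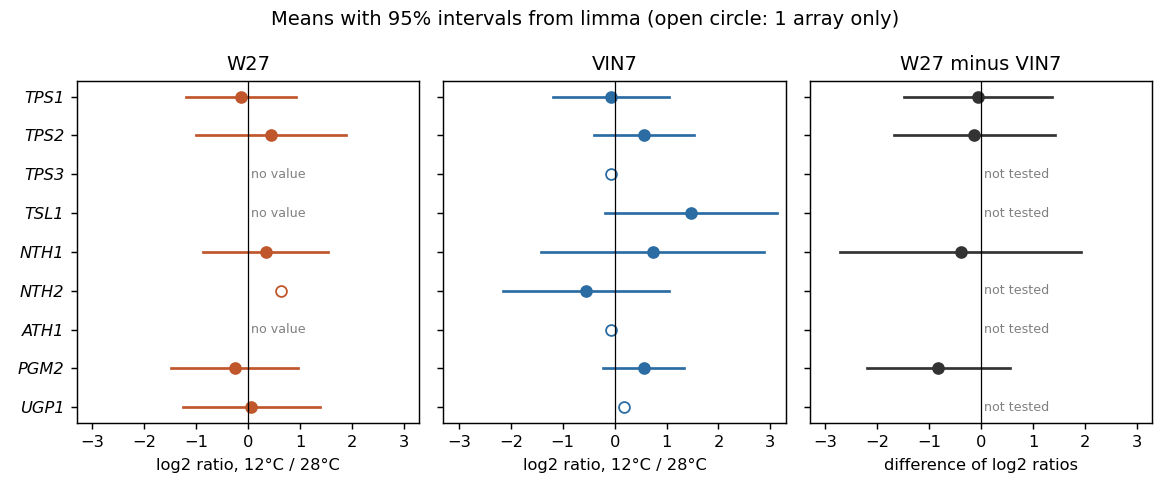
Mean log2 ratio (12°C over 28°C) of each trehalose gene in W27 and VIN7, and the W27 minus VIN7 difference, with 95% intervals from limma and open circles for a gene read on 1 array. Every interval contains 0, and that of *TSL1* in VIN7 (-0.18 to 3.13) reaches furthest up.

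Whether the response of these genes differed between the hybrids could be tested for *TPS1*, *TPS2*, *NTH1* and *PGM2*. As deposited, the largest difference was that of *PGM2*, with a mean of -0.26 in W27 and 0.56 in VIN7, so W27 minus VIN7 was -0.82 (95% interval -2.20 to 0.55, adjusted p = 0.893 by limma). It was -0.35 without W27 A, against -0.72 for *NTH1*, and -0.021 with W27 A turned. For *NTH1* as deposited the difference was -0.39 (95% interval -2.71 to 1.93), for *TPS2* -0.13 (-1.68 to 1.42) and for *TPS1* -0.06 (-1.49 to 1.36), with adjusted p between 0.951 and 0.986 by limma. The W27 and VIN7 arrays overlapped for each of the 4 genes. Over all genes, 0% of 4670 passed 5%, and 147 had an unadjusted p under 0.05, with 0 trehalose genes among them. Differences of 2-fold in either direction lay within the intervals of *TPS1*, *TPS2* and *NTH1*, so a similar response was not shown.

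**Figure D4:**
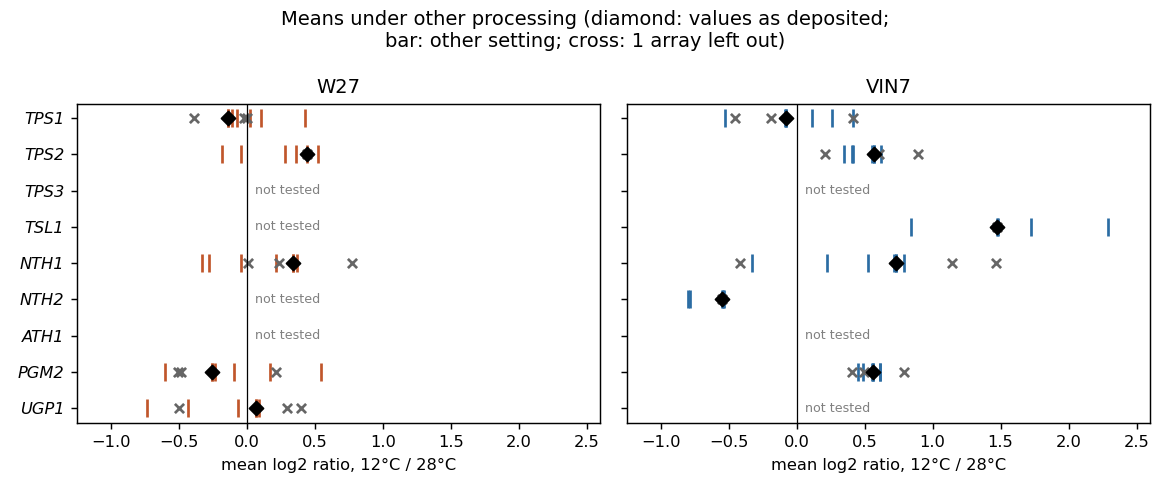
Mean log2 ratio (12°C over 28°C) of each tested trehalose gene as deposited (diamonds), under other processing (bars) and with 1 array left out (crosses), W27 left and VIN7 right. *TSL1*, *TPS2* and *PGM2* stay above 0 and *NTH2* below 0 in VIN7, whereas each of the 5 W27 genes has values on both sides of 0. *TSL1* and *NTH2* have no value without VIN7 A or VIN7 C, and leaving out VIN7 B cannot move them.

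Genes next to trehalose metabolism were taken from 4 lists of 24 genes written from standard yeast gene names, of which 21 had a row. None was called in either strain. In the list of glucose phosphorylation and hexose phosphates, medians ran from -0.14 to 1.12 in W27 and from -0.56 to 0.02 in VIN7 (5 genes each). The only one past 2-fold with a single sign, YGL253W, was at 3.19, 1.12 and 0.74 on W27 A, B and C (adjusted p = 0.661 by limma). On W27 B and C together its mean of 0.93 was under 2-fold. With W27 A turned, its arrays lay on both sides of 0, with a mean of -0.44. By size alone, without the condition on sign, 10.3% of all genes were past 2-fold higher and 10.8% lower in W27. In VIN7 these shares were 5.71% and 4.1%. In the list of trehalase regulators and trehalose uptake, medians ran from -0.49 to 0.55 in W27 and from -0.60 to 0.21 in VIN7 (5 genes each), none past 2-fold. In the list of protein kinase A and stress-response regulators, 1 of 6 genes was past 2-fold in W27 (YKL062W, higher, at 0.07 and 2.39 on W27 A and B) and 1 of 6 in VIN7 (YKL166C, lower, at -2.02 and -0.15 on VIN7 B and C). YKL062W had no value on W27 C and rests on W27 A and B, and with W27 A turned its values had opposite signs. Those of YKL166C did so when VIN7 C was turned, with a mean of -0.94.

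Among the other users of UDP-glucose, medians ran from -0.03 to 0.59 in W27 (3 genes) and from -0.03 to 1.16 in VIN7 (5 genes). *GSY2* (YLR258W), a glycogen synthase, was at -2.23, 0.63 and 0.09 on W27 A, B and C, and at 1.12, 1.61 and 1.16 on VIN7 A, B and C. The VIN7 mean was 1.30 ± 0.27 (SD, n = 3, adjusted p = 0.612 by limma), and with VIN7 C turned it was 0.53, with 2 of 3 arrays above 0. The study lists this gene from the same arrays, so its direction is not independent evidence.

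*TPS1*, *NTH1* and *PGM2* had values on all 6 arrays. With each array divided by its SD over genes, *TPS1* and *NTH1* ran against each other (Pearson r = -0.59, Spearman rho = -0.71), while *PGM2* gave r = 0.14 with *TPS1* and -0.40 with *NTH1*. The genes most like *TPS1* were YPL017C (r = 0.99) and YGR152C (r = 0.99), whose names no table used here gives. Of 2673 genes compared, 38 (1.42%) had an r of at least 0.9 with *TPS1*. These are descriptions over 6 arrays, which share their labelling and the opposed W27 A.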

How the data were processed

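Expression at 12°C against 28°C was measured in W27 and VIN7 on dual-colour ORF arrays, 3 per strain. Spot acquisition and background correction were done in GenePix, and normalization by array, filtering by flag and a manual correction for print tips in Acuity. The authors deposited 1 log2 ratio per ORF and array, with missing values left empty. Per the Methods, data sets were brought to a log2 ratio of 1, while the array medians in the table lay between -0.11 and 0.083. The exact centring, and whether VIN7 C was turned, are not given in the sources used here, and the scanner values were not used. The values were used as deposited. The array number limits the precision.

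The mean of each strain against 0, and W27 minus VIN7 over the 6 arrays, were tested by empirical Bayes in limma 3.58.1 (R 4.3.3) across all genes with at least 2 values per strain concerned, with Benjamini-Hochberg adjustment and a threshold of 5%. The code was tested on simulated data. SAM, which the study used, was not run. Gene lists and members were chosen with earlier results of these data known. All 9 trehalose genes are named. A neighbouring gene is singled out where its median was at least 2-fold with 1 sign on at least 2 arrays, and is given by its ORF name where the study's tables do not name it. For likeness to *TPS1*, 2 of the 5 nearest genes are printed.

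The alternatives were median centring, a common spread for all arrays, complete values, array weights, a joint model, a dye term, turning the sign of VIN7 C or W27 A, a replicate block, a 1% threshold, the mean for the median, a log2 ratio of 2, and leaving out each array. For the neighbouring genes and for the count of genes with 1 sign, turning or leaving out these arrays was chosen after seeing the data.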

Additional observations from a re-analysis of the deposited data

How the results depend on the processing

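No trehalose gene was called in W27, in VIN7 or between the strains under any alternative run. Over all genes, 0 were called in VIN7 under any alternative too. Between the strains, only array weights gave calls, at 8 higher and 29 lower of 4670 genes. In W27, calls came without W27 A, with array weights and, for 2 of 4542 genes, without W27 C. The mean signs of *TSL1*, *NTH2*, *PGM2* and *TPS2* in VIN7, and of *PGM2* between the strains, held in every alternative that could give them, though *PGM2* between the strains came to -0.021 with W27 A turned. In VIN7, 1 of 6 genes (*TSL1*) was at least 2-fold higher by its median, against 5.71% of all genes. This count was 0 with a log2 ratio of 2, 0 with complete values and 0 with VIN7 C turned. Without VIN7 A or VIN7 C the 1 gene was *NTH1*. The share of all genes was not taken for these alternatives. Most signs near 0 turned, and the causes were not tested.

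In W27, a common spread gave -0.061 for *UGP1*. Array weights gave 0.025 for *TPS1*, -0.040 for *NTH1*, 0.17 for *PGM2* and -0.44 for *UGP1*. No W27 array had its dyes exchanged, so a dye effect could not be estimated within W27. The dye term took it from VIN7 C against VIN7 A and VIN7 B, and the sign of VIN7 C is uncertain. Carried over to W27, the dye term gave 0.43 for *TPS1*, -0.046 for *TPS2* and -0.28 for *NTH1*. These values therefore cannot show whether dye affected the W27 means. Turning W27 A gave 0.11 for *TPS1*, -0.18 for *TPS2*, -0.33 for *NTH1*, 0.54 for *PGM2* and -0.73 for *UGP1*. With 1 array left out, the means ran from -0.39 to 0.002 for *TPS1*, from -0.51 to 0.21 for *PGM2* and from -0.50 to 0.40 for *UGP1*, where *PGM2* and *UGP1* turned without W27 A and *TPS1* without W27 C.

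In VIN7, *TPS1* was at 0.42 with a common spread, 0.26 with array weights and 0.11 with the dye term, and *NTH1* at -0.33 with array weights. With 1 array left out, *TPS1* ran from -0.45 to 0.42 and *NTH1* from -0.42 to 1.47, both turning without VIN7 B. *TSL1* was at 0.84 with VIN7 C turned and 2.29 with a common spread, and its adjusted p by limma ran from 0.217 to 0.936.

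For W27 minus VIN7, *TPS1* was at 0.31 with the dye term, 0.39 when VIN7 C was turned and 0.18 when W27 A was, and *NTH1* at 0.32 with array weights. For each gene tested, the dye term gave the same difference as leaving out VIN7 C, so these are not separate checks. With 1 array left out, *TPS1* ran from -0.55 to 0.31, *NTH1* from -1.13 to 0.76 and *TPS2* from -0.45 to 0.23. With a replicate block the differences were -0.06 for *TPS1*, -0.45 for *TPS2*, -0.39 for *NTH1* and -0.82 for *PGM2*. It gave 0 calls among them, and 0 over all 4155 genes tested. Whether a letter marks a shared batch is not given. Deviations from the strain means correlated at -0.11, 0.11 and -0.26 for A, B and C over 2674 genes. For unlike letters they ran from -0.27 (W27 B with VIN7 C) to 0.29 (W27 A with VIN7 C). Deviations within a strain are tied to each other, so these values cannot decide it. Genes left with 1 value by an alternative have no value there, and genes read on VIN7 C alone take the other sign by construction when it is turned.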
